A study of Mus musculus with 12 samples.

Results

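The genes described here handle glutamine and its nitrogen in mouse pancreatic neuroendocrine tumors (PanNETs). They are *Slc1a5*, *Gls2*, *Glul*, *Glud1*, *Gpt*, *Gpt2*, *Got1* and *Got2*, chosen by name for their place in glutamine metabolism and matched by Ensembl identifier to 8 of the 38924 genes in the count tables. The choice was made with earlier results of these data known. All 8 passed the filter on low counts, with between 372 and 39480 reads on a gene in a tumor. RNA-seq had been performed on 12 tumors of the RIP1Tag2 model, in which a rat insulin promoter drives a viral oncoprotein, the large T antigen, in pancreatic beta cells. All mice were of the C57Bl6 strain and carried this transgene. From 15.5 weeks of age they were treated for 4 days with saline (control, 4 tumors), with sunitinib (4 tumors), an inhibitor of VEGF and PDGF receptor kinases, or with rapamycin plus sunitinib (R+S, 4 tumors), which adds an inhibitor of the kinase complex mTORC1. Tumors are named by group and by the number in their label. No group with rapamycin alone was analysed here, so the rapamycin comparison is that of R+S with sunitinib. The labels do not state that the tumors of a group came from separate mice, and p-values measure the spread between these tumors. A title prefix of unstated meaning is shared by all 4 control tumors, by 3 sunitinib tumors (5, 6 and 8) and by 2 R+S tumors (5 and 7). Each prefix belongs to a single treatment. Treated tumors of 1 prefix were also summed and counted as 1 sample, while the control tumors were kept separate. The values are given where this ended a call on a named gene.

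Glutamine enters cells through transporters such as ASCT2, is split to glutamate by glutaminases in mitochondria, and is remade by glutamine synthetase. Glutamate gives α-ketoglutarate to the TCA cycle either through glutamate dehydrogenase, which frees ammonia, or through aminotransferases, which pass the amino group to pyruvate or oxaloacetate and so make alanine or aspartate. In beta cells glutamate dehydrogenase links amino acids to insulin release, and the aspartate aminotransferases are part of the malate-aspartate shuttle that carries reducing equivalents into mitochondria.

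Libraries held between 31872342 and 44215054 counted reads. Sunitinib tumor 6 stood apart from its group, with a correlation across genes of log2 CPM (CPM, normalized counts per 1000000 counted reads) of 0.872 to 0.895 with the other sunitinib tumors, against 0.957 to 0.978 among those 3. Its 12 beta cell markers, such as *Ins1* and *Ins2*, summed to 4849 CPM, while the other 11 tumors lay between 35459 and 81141 CPM. It also had the highest sum of the hepatocyte list, at 413 CPM against 20.04 to 77.5 CPM in the others. A marker on that list, *Tat*, went the other way, at 2.49 CPM in this tumor against 16.1 to 74.1 CPM in the others. In those 11 tumors *Tat* made up most of the sum. Values without sunitinib tumor 6 are given beside the named genes whose call it changed, and beside some others. Other cell types moved with treatment. The 25 markers of acinar cells, the exocrine cells around the islets, summed to between 41.8 and 142 CPM in control tumors, between 12894 and 46004 in sunitinib tumors and between 3463 and 19322 in R+S tumors. Of these 25, 24 were higher in sunitinib tumors and 23 in R+S tumors than in control tumors, and 3 were lower in R+S than in sunitinib tumors by edgeR at an adjusted p under 0.05. The 10 endothelial markers summed to between 610 and 802 CPM in control tumors, 57.8 to 97.2 in sunitinib tumors and 129 to 165 in R+S tumors. Of these, 9 were lower in each treated group than in control tumors, and 7 were higher in R+S than in sunitinib tumors. Of the 12 beta cell markers, edgeR and DESeq2 called 0 in each comparison, and at an unadjusted p under 0.05 by edgeR 1 was higher in R+S than in control tumors. No marker on these 3 lists was at 0 in every tumor.

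**Figure D1:**
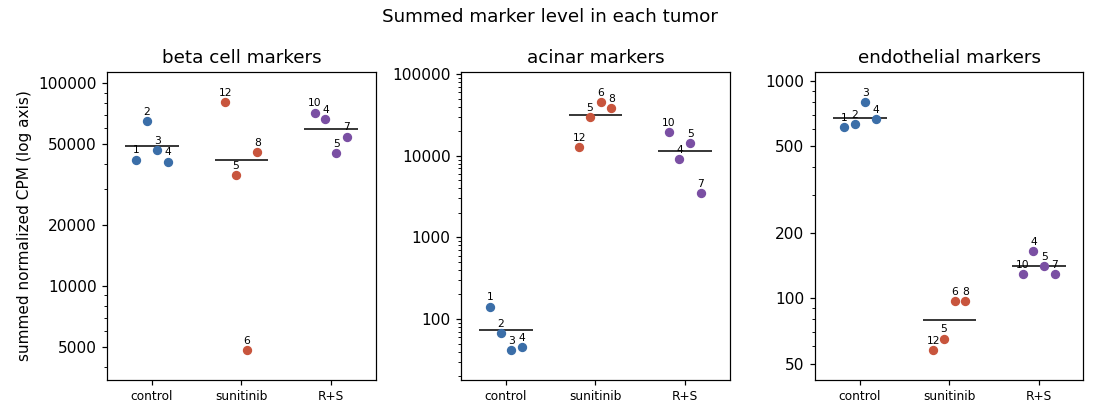
Summed normalized CPM (log axes) of the 12 beta cell, 25 acinar and 10 endothelial markers in each tumor, with tumor numbers above the points and group means as lines. Sunitinib tumor 6 lies below all others for beta cell markers, at 4849 CPM, and the acinar and endothelial sums do not overlap between control and treated tumors.

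Across the 8 genes, sunitinib tumors had levels above control for the transporter, the glutaminase and the aminotransferases, and below control for *Glud1* and *Glul*, but 0 of the 8 genes passed the test, against 4.48% of all 16645 tested genes. In R+S tumors the 4 aminotransferases and *Slc1a5* lay below their levels in sunitinib tumors. Of these only *Got2*, the mitochondrial aspartate aminotransferase, fell past the threshold, as did 4.58% of all genes (7.21% were called in either direction). *Got2* averaged 71.5 ± 8.1 CPM (SD, n = 4) in R+S tumors and 104 ± 16.1 CPM (SD, n = 4) in sunitinib tumors. *Gls2* had no such difference between the treated groups, with 38.0 ± 6.5 CPM in R+S and 40.4 ± 11.3 CPM in sunitinib tumors (SD, n = 4 each). The calls were made with edgeR's quasi-likelihood test at an adjusted p under 0.05.

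**Figure D2:**
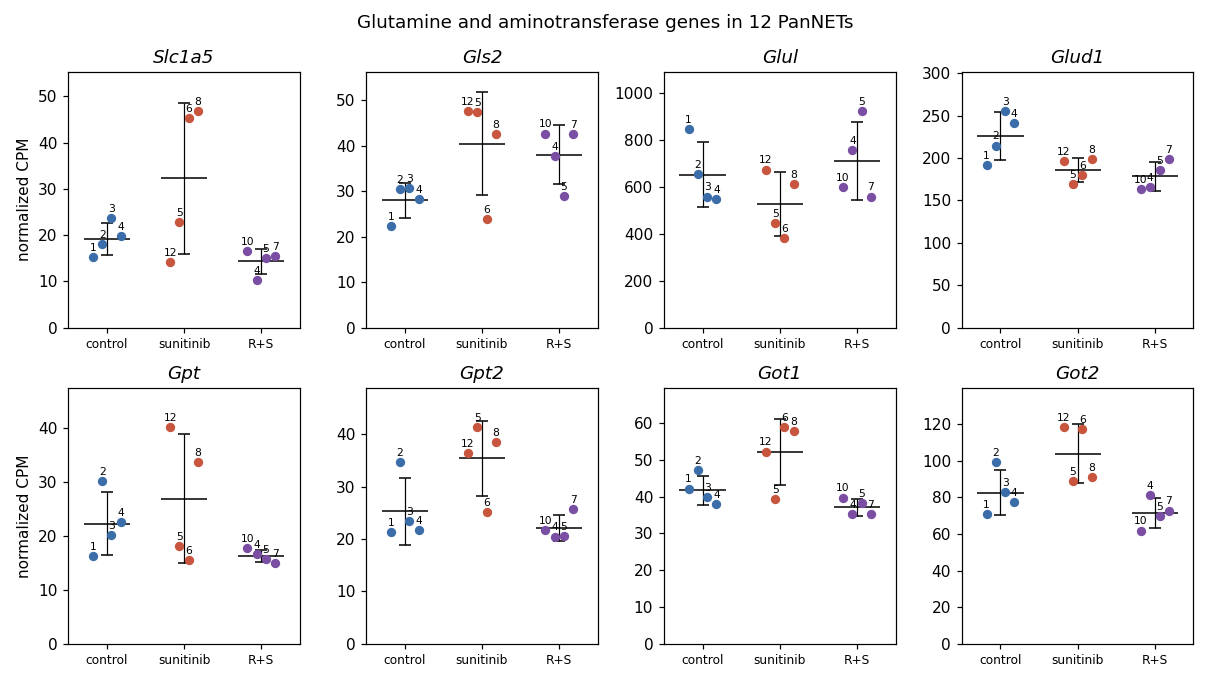
Normalized CPM of the 8 genes in each tumor, with the mean (line) and SD (bars) of each group of 4 and tumor numbers above the points. *Got2* is the gene in which all 4 R+S tumors (61.9 to 81.5 CPM) lie below all 4 sunitinib tumors (88.9 to 118 CPM).

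Counted over the 8 genes, 0 passed the threshold between sunitinib and control tumors by edgeR. At an unadjusted p under 0.05, 6 of the 8 did so, 5 higher (11.3% of all genes) and 1 lower (8.2% of all genes), against 19.5% of all genes in either direction, and DESeq2 called 0. Since the 8 genes were chosen with earlier results of these data known, their counts are not those of an independent choice. The median log2 fold change of the 8 genes was 0.32 and that of all genes 0.03. Between R+S and control tumors edgeR called 0 of 8, where 4.16% of all genes were called. Only *Glud1* had an unadjusted p under 0.05 there, being lower as were 10.9% of all genes, DESeq2 called 0, and the median was -0.20 against 0.01 over all genes. Between R+S and sunitinib tumors edgeR called 1 of 8 (*Got2*, lower), where 4.58% of all genes were called lower. At an unadjusted p under 0.05, 5 of the 8 did so, all lower, against 17.6% of all genes lower, and the median was -0.51 against -0.02. DESeq2 called 4, namely *Got2*, *Got1*, *Gpt2* and *Slc1a5*, where it called 18.3% of all genes in either direction. In the comparisons with control, where DESeq2 called 0 of the 8, it called 8.87% (sunitinib) and 10.1% (R+S) of all genes. Of the 8 genes, 1 was lower in R+S than in sunitinib tumors with no overlap between the groups, which held for 9.73% of all genes. The sunitinib-control and R+S-control comparisons share the control tumors, and the R+S-sunitinib and sunitinib-control comparisons share the sunitinib tumors, so that they are not independent. Without sunitinib tumor 6, edgeR called 1 of the 8 genes (*Gls2*) between sunitinib and control tumors, 0 between R+S and control tumors and 2 (*Gpt* and *Gpt2*) between R+S and sunitinib tumors. Of all genes, 5.3%, 9.67% and 10.1% were called in these fits.

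**Figure D3:**
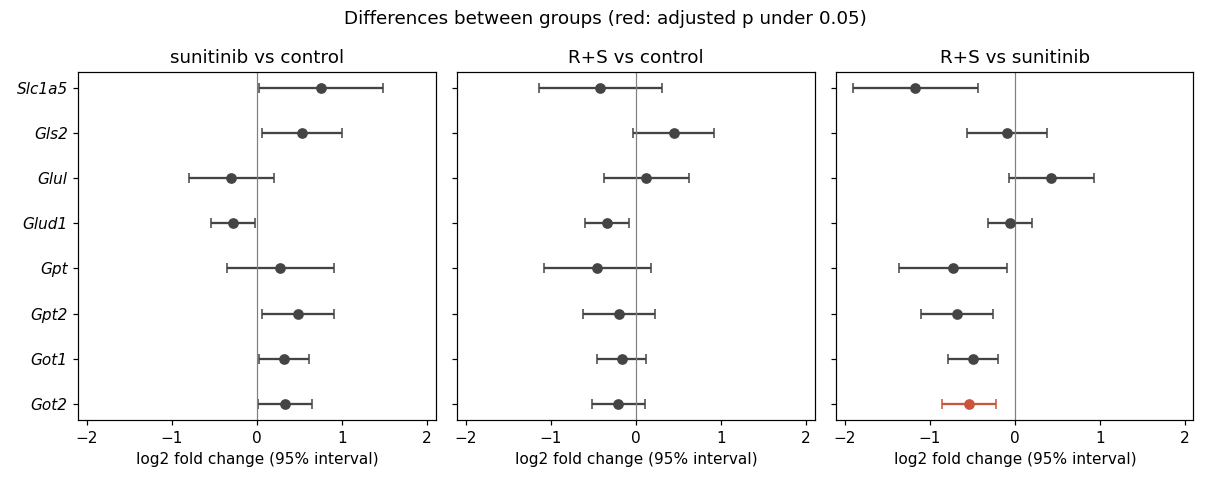
Log2 fold changes of the 8 genes with 95% intervals in the 3 comparisons, with 4 tumors a group and red for an adjusted p under 0.05 by edgeR. Only *Got2* in R+S against sunitinib tumors is red, at -0.54, while 6 of the 8 points are positive in sunitinib against control tumors.

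Per kilobase of merged exons, *Glul* had the highest level of the 8 genes in control tumors, at 196 ± 41.4 CPM per kb (SD, n = 4). *Glud1* followed at 53.6 ± 6.7 CPM per kb. *Got2* (17.1 ± 2.5 CPM per kb) and *Got1* (16.4 ± 1.6 CPM per kb) were next and did not differ beyond their spread on this length. Per kilobase of the longest transcript they did, at 32.7 ± 4.83 and 20.3 ± 1.93 CPM per kb (SD, n = 4 each). *Gls2* (8.05 ± 1.11 CPM per kb) and *Gpt* (7.56 ± 1.98 CPM per kb) did not differ beyond their spread per kilobase of merged exons. Nor did *Slc1a5* (4.60 ± 0.84 CPM per kb) and *Gpt2* (4.49 ± 1.13 CPM per kb) on that length. The first 6 places were the same in all 3 groups, and *Slc1a5* and *Gpt2* changed places in R+S tumors. With the longest transcript as the length, the first 5 places stayed and the last 3 changed in order. The glutamine-forming *Glul* and the glutamate-oxidizing *Glud1* headed the order in each group. The per-kb ratio of *Got2* to *Got1* was 1.04 ± 0.11 in control, 1.07 ± 0.17 in sunitinib and 1.02 ± 0.17 in R+S tumors (SD, n = 4 each), and its ranges overlapped between all groups. With the longest transcript as the length it was 1.61 ± 0.16, 1.65 ± 0.26 and 1.58 ± 0.26, so that the level of *Got2* relative to *Got1* depended on the length used.

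*Slc1a5* (ENSMUSG00000001918, chr7:16781340-16798274, plus strand, GRCm38) encodes ASCT2, the sodium-dependent exchanger of neutral amino acids that takes up glutamine. It measured 15.3, 18.04, 23.7 and 19.8 CPM in control tumors 1 to 4. In sunitinib tumors 5, 6, 8 and 12 it measured 22.8, 45.4, 46.9 and 14.2 CPM. In R+S tumors 4, 5, 7 and 10 it measured 10.3, 15.1, 15.4 and 16.5 CPM. Sunitinib tumors 6 and 8 lay above every other tumor, while sunitinib tumor 12 lay below all control tumors, so that the groups overlapped in each comparison. Its SD of log2 CPM among sunitinib tumors was 0.83, against a median of 0.43 over all tested genes in that group. The difference between R+S and sunitinib tumors was -1.17 ± 0.34 (log2 fold change ± SE), with an adjusted p of 0.0557 by edgeR. Without sunitinib tumor 6 it was -0.96 (adjusted p = 0.0798 by edgeR). It passed the threshold when sunitinib tumor 12 (-1.42, adjusted p = 0.0323 by edgeR) or sunitinib tumor 5 (-1.32, adjusted p = 0.0314 by edgeR) was left out. Against control tumors the difference was 0.75 ± 0.33 for sunitinib (adjusted p = 0.238 by edgeR; 0.54 without sunitinib tumor 6) and -0.42 ± 0.33 for R+S (adjusted p = 0.511 by edgeR).

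*Gls2* (ENSMUSG00000044005, chr10:128194457-128210004, plus strand) encodes the liver-type glutaminase, which releases ammonia from glutamine in mitochondria. Control tumors 1 to 4 had 22.4, 30.5, 30.6 and 28.4 CPM. Sunitinib tumors 5, 6, 8 and 12 had 47.5, 23.8, 42.6 and 47.7 CPM, and R+S tumors 4, 5, 7 and 10 had 37.8, 28.9, 42.6 and 42.7 CPM. A single tumor in each treated group, sunitinib tumor 6 and R+S tumor 5, reached into the range of the control tumors, and the other 6 treated tumors lay above it. The difference from control on the log2 scale was 0.53 ± 0.22 for sunitinib (adjusted p = 0.201 by edgeR) and 0.44 ± 0.22 for R+S (adjusted p = 0.279 by edgeR). R+S and sunitinib tumors differed by -0.09 (95% interval -0.56 to 0.38), which does not show that they were equal. Without sunitinib tumor 6, the tumor low in beta cell markers, the difference between sunitinib and control was 0.72, and the adjusted p of 0.0208 by edgeR passed the threshold. This was the case in 1 of the 12 fits that left out 1 tumor and under 0 of the 8 other settings.

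*Glul* and *Glud1* act at the glutamate node, the former adding ammonia to glutamate and the latter removing it. *Glul* (ENSMUSG00000026473, chr1:153899944-153909723, plus strand) had 844, 656, 558 and 548 CPM in control tumors 1 to 4. It had 444, 383, 610.5 and 673 CPM in sunitinib tumors 5, 6, 8 and 12, and 757, 923, 558 and 600.2 CPM in R+S tumors 4, 5, 7 and 10. The 3 groups overlapped throughout, and the largest difference, R+S over sunitinib, was 0.43 ± 0.23 (adjusted p = 0.225 by edgeR). *Glud1* (ENSMUSG00000021794, chr14:34310727-34345265, plus strand) had 191, 215, 256 and 241 CPM in control tumors 1 to 4. It had 169, 179.7, 199 and 196 CPM in sunitinib tumors 5, 6, 8 and 12, and 166, 186, 198 and 163 CPM in R+S tumors 4, 5, 7 and 10. All treated tumors lay below the 3 highest control tumors, and control tumor 1 lay within the treated range. The differences from control were -0.28 ± 0.12 for sunitinib (adjusted p = 0.218 by edgeR) and -0.34 ± 0.12 for R+S (adjusted p = 0.134 by edgeR). With the acinar marker score as a covariate these values turned to 0.60 and 0.39 and were not past the threshold, in a fit that called 0% of all genes against control. *Glud1* varied least of the 8 genes among sunitinib tumors, with an SD of log2 CPM of 0.11.

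*Gpt* and *Gpt2* encode the cytosolic and mitochondrial alanine aminotransferases, which make alanine and α-ketoglutarate from pyruvate and glutamate. *Gpt* (ENSMUSG00000022546, chr15:76695716-76699686, plus strand) had 16.2, 30.1, 20.1 and 22.5 CPM in control tumors 1 to 4. It had 18.1, 15.5, 33.7 and 40.1 CPM in sunitinib tumors 5, 6, 8 and 12 and between 14.96 and 17.7 CPM in R+S tumors. The R+S tumors were close to each other, at an SD of log2 CPM of 0.10, while the sunitinib tumors split into 2 low and 2 high. *Gpt* in R+S differed from sunitinib by -0.73 ± 0.29 (adjusted p = 0.121 by edgeR), and by -0.92 without sunitinib tumor 6 (adjusted p = 0.0458 by edgeR). *Gpt2* (ENSMUSG00000031700, chr8:85492576-85527560, plus strand) had 21.4, 34.8, 23.4 and 21.8 CPM in control tumors 1 to 4. It had 41.4, 25.1, 38.6 and 36.4 CPM in sunitinib tumors 5, 6, 8 and 12, and 20.5, 20.6, 25.8 and 21.6 CPM in R+S tumors 4, 5, 7 and 10. R+S tumor 7 exceeded sunitinib tumor 6 by a small margin, and all other R+S tumors lay below all sunitinib tumors. *Gpt2* in R+S differed from sunitinib by -0.68 ± 0.19 (adjusted p = 0.0559 by edgeR). Without sunitinib tumor 6 (-0.81, adjusted p = 0.0268 by edgeR) or without control tumor 2 (-0.68, adjusted p = 0.0491 by edgeR) it passed the threshold. The per-kb ratio of *Gpt2* to *Gpt* was 0.599 ± 0.075 in control, 0.776 ± 0.315 in sunitinib and 0.716 ± 0.123 in R+S tumors (SD, n = 4 each), and with the longest transcript as the length 0.886 ± 0.111, 1.15 ± 0.47 and 1.06 ± 0.18.

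*Got1* and *Got2* encode the cytosolic and mitochondrial aspartate aminotransferases. *Got1* (ENSMUSG00000025190, chr19:43499752-43524605, minus strand) had 42.2, 47.1, 39.8 and 37.9 CPM in control tumors 1 to 4. It had 39.2, 58.9, 57.8 and 52.2 CPM in sunitinib tumors 5, 6, 8 and 12, and 35.1, 38.2, 35.4 and 39.8 CPM in R+S tumors 4, 5, 7 and 10. Sunitinib tumor 5 lay within the control and R+S ranges, and the other 3 sunitinib tumors lay above all control and R+S tumors. *Got1* in R+S differed from sunitinib by -0.49 ± 0.13, at an adjusted p of 0.0501 by edgeR, just outside the threshold, and by -0.42 without sunitinib tumor 6 (adjusted p = 0.0678 by edgeR). The difference between sunitinib and control tumors was 0.32 ± 0.13 (adjusted p = 0.218 by edgeR). Without sunitinib tumor 5 these were -0.61 (adjusted p = 0.00928 by edgeR) and 0.44 (adjusted p = 0.0399 by edgeR), the latter past the threshold in this 1 of the 12 fits that left out 1 tumor and under 0 of the 8 other settings. *Got2* (ENSMUSG00000031672, chr8:95864134-95888547, minus strand) had 70.9, 99.4, 83.1 and 77.3 CPM in control tumors 1 to 4. It had 88.9, 117, 91.2 and 118 CPM in sunitinib tumors 5, 6, 8 and 12, and 81.5, 69.8, 72.8 and 61.9 CPM in R+S tumors 4, 5, 7 and 10. The R+S and sunitinib groups did not overlap, and the control tumors spanned the gap between them. *Got2* fell by 0.54 on the log2 scale in R+S against sunitinib tumors (SE 0.14, 95% interval -0.85 to -0.23, adjusted p = 0.0455 by edgeR), to 0.688 of the sunitinib level. The exact permutation test (two-sided, 4 against 4 tumors) gave p = 0.0286, the smallest that this design allows, and was the lowest of the 24 such tests over genes and comparisons. This call was narrow. It was lost on leaving out any 1 tumor other than sunitinib tumor 5, with adjusted p between 0.0225 and 0.125 by edgeR over the 12 fits and log2 differences between -0.62 and -0.47. Without R+S tumor 4, 5 or 7, at most 1 of all genes was called in this comparison. The *Got2* call was lost too when treated tumors of 1 label prefix were summed (-0.61, adjusted p = 0.0688 by edgeR). In bulk tumor RNA, fewer cells of a type and less RNA per cell cannot be told apart. With the acinar marker score as a covariate, the *Got2* difference was -0.70 (adjusted p = 0.0646 by edgeR), where 0.577% of all genes were called. The part of the endothelial markers in it was not tested. The hepatocyte list summed to 413 CPM in sunitinib tumor 6 and to 26.4, 45.7 and 77.5 CPM in sunitinib tumors 5, 8 and 12. In R+S tumors it summed to 38.6 to 60.3 CPM. Of its 4 tested markers 2, *Alb* and *Apoa2*, were lower in R+S than in sunitinib tumors by edgeR, as were 4.58% of all genes. *Tat*, also on the list, went the other way, with a mean of 44.5 CPM in R+S and 35.0 CPM in sunitinib tumors. The *Got2* difference was -0.48 (adjusted p = 0.0620 by edgeR) without sunitinib tumor 6, which had the highest hepatocyte sum.

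The promoters of *Got2*, *Got1* and *Gpt2* are shown because, of the 4 aminotransferases among the 8 genes, these 3 had the lowest adjusted p between R+S and sunitinib tumors. The sequences are from RefSeq on GRCm38.p6, run from 250 bases before to 50 bases after the annotated start, and were found for 5 of the 8 genes. They lie at chr8:95888352-95888651 on the minus strand for *Got2*, chr19:43524556-43524855 on the minus strand for *Got1*, and chr8:85492326-85492625 on the plus strand for *Gpt2*. Capitals mark GCGTG, the core of a hypoxia response element, and TGATGNAA, the composite element bound by C/EBP and ATF4 dimers, and a match on the other strand is capitalized as its reverse complement.
Got2: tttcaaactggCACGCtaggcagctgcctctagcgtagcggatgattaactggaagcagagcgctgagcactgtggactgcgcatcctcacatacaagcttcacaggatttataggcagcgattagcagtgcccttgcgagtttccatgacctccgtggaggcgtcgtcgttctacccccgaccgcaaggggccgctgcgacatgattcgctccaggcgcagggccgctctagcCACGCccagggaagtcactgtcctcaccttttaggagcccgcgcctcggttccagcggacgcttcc
Got1: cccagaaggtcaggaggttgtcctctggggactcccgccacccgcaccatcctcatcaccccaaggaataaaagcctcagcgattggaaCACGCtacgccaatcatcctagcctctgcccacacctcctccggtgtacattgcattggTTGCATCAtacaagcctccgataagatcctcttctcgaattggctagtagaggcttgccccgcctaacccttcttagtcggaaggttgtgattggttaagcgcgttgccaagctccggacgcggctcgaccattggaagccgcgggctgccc
Gpt2: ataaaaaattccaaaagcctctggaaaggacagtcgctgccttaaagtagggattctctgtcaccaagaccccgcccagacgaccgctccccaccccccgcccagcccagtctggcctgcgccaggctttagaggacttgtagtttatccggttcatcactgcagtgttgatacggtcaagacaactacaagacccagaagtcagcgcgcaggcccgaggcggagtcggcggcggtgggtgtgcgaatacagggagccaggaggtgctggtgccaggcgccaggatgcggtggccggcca
The *Got2* promoter held 2 copies of GCGTG, at -239 and -16 from the start. The *Got1* promoter held 1 GCGTG, at -161, and 1 TGATGNAA, at -102. GCGTG occurred in 32.4% and TGATGNAA in 3.97% of 32851 mouse promoters of the same length. The other cores searched, ACGTG and CACGTG (which contains ACGTG), occurred in 19.6% and 7.15% of these promoters and were not among the letters of the 5 windows. The windows of *Got2*, *Got1* and *Gpt2* held 24, 18 and 19 CpG dinucleotides, against a median of 7 over all promoters.

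Some reads of these genes could not be assigned with certainty. Of the 50-base words of the *Got2* transcripts, 16.8% also occur in the pseudogene *Got2-ps1*, and the shares were 11.9% for *Glul*, 6.49% for *Glud1* and 1.17% for *Gpt2*. The other 4 genes shared none. Exons of *Gls2*, *Got2* and *Glul* overlap genes on the opposite strand (*Spryd4*, *Gm45760* and *Teddm2*). Those of *Glul* also overlap *Mir8114* on the same strand. The kit marked strand, and the strand setting of the counting is not given in the sources used here.

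The genes whose profiles over the 12 tumors were most like that of *Got2* were *Utp4*, *Cdc16* and *Atp5c1*, out of 10647 genes compared. Their root mean square differences from *Got2* were 0.0887, 0.0958 and 0.105 on the log2 CPM scale after centring, where *Got2* itself had an SD of 0.29.

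Around these 8 genes, 62 others of glutamine and glutamate metabolism were listed, of which 58 were tested. Most calls were in comparisons with R+S tumors, where 4 were lower (2.61% of all tested genes were) and 1 was higher (1.55% were) than in control tumors, and 7 were lower than in sunitinib tumors (4.58% were). Between sunitinib and control tumors 1 gene passed, *Slc38a3*, which was higher, as were 1.93% of all tested genes. The median log2 fold changes of the 58 genes were 0.07 for sunitinib and -0.14 for R+S against control, and -0.17 for R+S against sunitinib. Without sunitinib tumor 6 the counts by edgeR were 2 for sunitinib against control, 10 for R+S against control and 13 for R+S against sunitinib, where 5.3%, 9.67% and 10.1% of all genes were called. With the acinar marker score as a covariate they were 0, 0 and 1, the last being *Psat1*. That fit called 0%, 0% and 0.577% of all genes, so that the counts of 0 against control are not particular to the listed genes.

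Among 17 tested transporters, *Slc38a3* and *Slc38a5* stood out. They encode SNAT3 and SNAT5, which move glutamine together with sodium in exchange for protons. *Slc38a3* was nearly silent in control tumors, at 0.113 to 0.344 CPM (4 to 13 reads). It rose in sunitinib tumors to 17.1, 27.5, 19.9 and 4.43 CPM in tumors 5, 6, 8 and 12, by 6.49 ± 0.62 on the log2 scale (adjusted p = 7.94e-05 by edgeR). In R+S tumors it reached 2.64 to 5.15 CPM, 4.27 ± 0.57 above control (adjusted p = 0.00154 by edgeR) and -2.22 ± 0.49 against sunitinib (adjusted p = 0.0305 by edgeR). Its order among groups, lowest in control and highest in sunitinib tumors, was also that of the acinar sums. With the acinar marker score as a covariate the differences were 3.72 (sunitinib against control), 2.01 (R+S against control) and -1.71 (R+S against sunitinib, adjusted p = 0.177 by edgeR), and none was past the threshold. That fit called 0% of all genes against control and 0.577% between R+S and sunitinib tumors, so that the lost calls are not particular to *Slc38a3*. The part of acinar cells in its order among groups was not tested. Without sunitinib tumor 6 the difference between sunitinib and control was 6.17 (adjusted p = 9.67e-05 by edgeR) and that between R+S and sunitinib -1.90 (adjusted p = 0.0343 by edgeR). The call between R+S and sunitinib was lost on leaving out R+S tumor 4, 5, 7 or 10 or sunitinib tumor 8. It was also lost with treated tumors of 1 label prefix summed (-1.77, adjusted p = 0.0952 by edgeR). *Slc38a5* measured 1183, 1090, 1290 and 1270 CPM in control tumors 1 to 4. It measured 905, 383, 1442 and 2081 CPM in sunitinib tumors 5, 6, 8 and 12, and 379.6, 134, 323 and 168 CPM in R+S tumors 4, 5, 7 and 10. All R+S tumors lay below all others, with sunitinib tumor 6 just above them. *Slc38a5* fell by 2.27 on the log2 scale against control (SE 0.47, adjusted p = 0.0198 by edgeR) and by 2.26 against sunitinib (SE 0.47, adjusted p = 0.0277 by edgeR), and differed by -0.01 between sunitinib and control tumors. The call against control was lost in 5 of the 12 fits that left out 1 tumor (control 3 or 4, or R+S 5, 7 or 10), and that against sunitinib in 4 (R+S 4, 5, 7 or 10). Among 8 tested mitochondrial carrier and malate-aspartate shuttle genes, *Mdh1*, the cytosolic malate dehydrogenase that works beside *Got1*, was lower in R+S (166 to 227 CPM) than in sunitinib tumors (248 to 419 CPM), by -0.76 ± 0.17 (adjusted p = 0.0301 by edgeR). This call was lost on leaving out control tumor 3, R+S tumor 4, 5, 7 or 10, or sunitinib tumor 12. Without R+S tumor 4, 5 or 7, at most 1 of all genes was called between R+S and sunitinib tumors. Losses in those fits are thus not particular to *Slc38a3*, *Slc38a5* or *Mdh1*.

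Among the 11 tested genes of the list of other aminotransferases, *Psat1* alone passed. It encodes the phosphoserine aminotransferase of serine synthesis, which uses glutamate as the amino donor. R+S tumors 4, 5, 7 and 10 had 53.2, 55.1, 66.2 and 57.5 CPM, below the 105 to 194 CPM of control and the 138 to 167 CPM of sunitinib tumors. *Psat1* fell by 1.201 against control (SE 0.18, adjusted p = 0.00362 by edgeR) and by 1.39 against sunitinib (SE 0.18, adjusted p = 0.0143 by edgeR) on the log2 scale. The fall against control was called in all 12 fits that left out 1 tumor, and that against sunitinib in 9 of 12, being lost without R+S tumor 4, 5 or 7. In each of those fits at most 1 of all genes was called between R+S and sunitinib tumors, so that these losses are not particular to *Psat1*. Of the 10 glutamine amidotransferase genes, such as *Asns*, which makes asparagine, and *Gfpt1*, which opens the hexosamine pathway, edgeR and DESeq2 called 0 in each comparison. At an unadjusted p under 0.05 by edgeR, 0 of them differed between sunitinib and control tumors, against 19.5% of all genes. Between R+S and sunitinib tumors 1 was lower, as were 17.6% of all genes, and 1 was higher. In R+S against control tumors 2 were higher. The shares of all genes higher in these comparisons are not given, so that the counts of higher genes cannot be judged.

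Of the 12 genes of the proline, GABA and glutathione branches, *Pycr1*, *Pycr3* and *Gad2* were lower in R+S than in sunitinib tumors. *Pycr1* and *Pycr3* encode pyrroline-5-carboxylate reductases, which close the route from glutamate to proline. *Pycr1* had 9.39 to 14.8 CPM in R+S, 17.5 to 46.0 CPM in sunitinib and 16.8 to 53.3 CPM in control tumors, so that the R+S tumors lay below all others. It differed by -1.35 ± 0.35 from sunitinib (adjusted p = 0.0422 by edgeR) and by -1.32 ± 0.35 from control (adjusted p = 0.0572 by edgeR). *Pycr3* had 19.2 to 21.9 CPM in R+S, 27.3 to 50.5 CPM in sunitinib and 31.9 to 34.5 CPM in control tumors. It fell by 0.84 against sunitinib (SE 0.16, adjusted p = 0.0257 by edgeR) and by 0.67 against control (SE 0.16, adjusted p = 0.0399 by edgeR). *Gad2* encodes a glutamate decarboxylase that makes GABA. It had 1.44, 1.39, 6.77 and 12.4 CPM in R+S tumors 4, 5, 7 and 10, against 13.3 to 47.0 CPM in sunitinib and 43.3 to 61.9 CPM in control tumors. R+S tumor 10 was only just below sunitinib tumor 6, and R+S tumors 4 and 5 were far below the rest. *Gad2* fell by 3.22 against control (SE 0.66, adjusted p = 0.0193 by edgeR) and by 2.44 against sunitinib (SE 0.64, adjusted p = 0.0434 by edgeR). Of these calls, *Pycr1* against sunitinib was lost in 8 of the 12 fits that left out 1 tumor, *Gad2* against sunitinib in 9, *Pycr3* against control in 9 and *Gad2* against control in 2. Without R+S tumor 4, 5 or 7, at most 1 of all genes was called between R+S and sunitinib tumors. With treated tumors of 1 label prefix summed, *Pycr1* (-1.35, adjusted p = 0.0659 by edgeR) and *Gad2* (-2.30, adjusted p = 0.0630 by edgeR) against sunitinib were lost. So was *Pycr3* against control (-0.66, adjusted p = 0.0536 by edgeR).

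**Figure D4:**
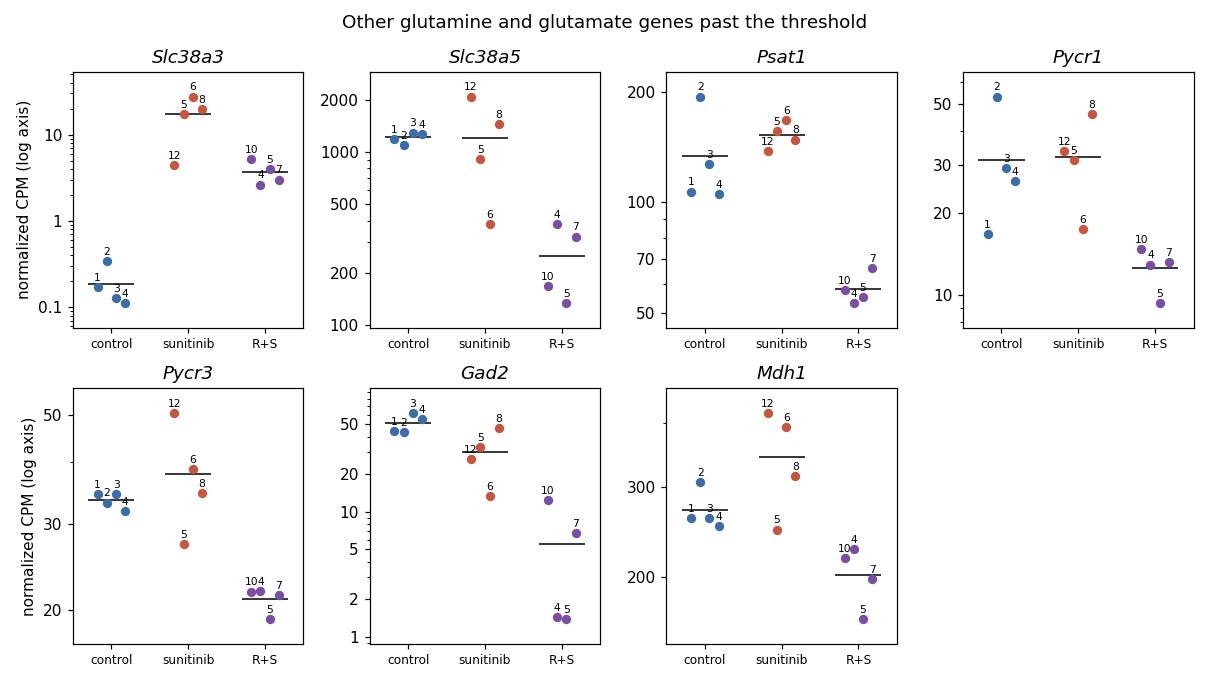
Normalized CPM (log axes) in each tumor of the 7 other glutamine and glutamate genes past the threshold in at least 1 comparison, with tumor numbers above the points and group means as lines. For *Slc38a5*, *Psat1*, *Pycr1*, *Pycr3*, *Gad2* and *Mdh1* every R+S tumor lies below every sunitinib tumor, and *Slc38a3* is lowest in the control tumors at 0.113 to 0.344 CPM. The genes shown were picked by this threshold, so that the separation follows in part from the choice. It held for 8 of the 58 tested listed genes and 9.73% of all genes.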

How the data were processed

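RNA was sequenced from 12 RIP1Tag2 tumors, 4 in each of 3 treatment groups, grouped by their labels. The authors deposited 1 table per tumor of raw counts of reads per gene, as whole numbers without normalization. The submitters' processing notes name cutadapt 1.2.1, TopHat2 2.0.9, HTSeq 0.5.4p3 and the build GRCm38, and the annotation release is not given in the sources used here. The 5 closing lines of each table (reads on no gene and the like) were left out. Reads on no gene or on more than 1 gene made up 12.1% to 19.5% of these and the counted reads together. Outside this share, 21203479 to 48418780 alignments per library were not unique and not counted on genes. Of the 38924 identifiers, 37607 were paired with a symbol and coordinates through GENCODE M21. Per-gene counting error was not given separately, since PCR copies were not marked.

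Counts were filtered with filterByExpr (minimum count 10, minimum total 15), normalized by TMM and tested with edgeR 4.0.16 by its quasi-likelihood F-test (R 4.3.3, limma 3.58.1) in 1 fit of all 12 tumors. P-values were adjusted by Benjamini-Hochberg over the 16645 tested genes in each comparison, with a threshold of 0.05. Normalized CPM are per 1000000 counted reads after TMM scaling, log2 CPM used a prior count of 2, and an SE is the absolute log2 fold change divided by the square root of F. The exact permutation test ran over the 70 arrangements of 4 against 4 tumors. The fit was tested on simulated counts. Of the 62 other listed glutamine and glutamate genes, 4 were not tested, and 1 of those tested is not reported here by name.

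The genes and lists were chosen with earlier results of these data known. Named are the 8 genes, the listed glutamine and glutamate genes with an adjusted p under 0.05 (at most 20 a comparison), and for a called gene the 3 most like it in profile among genes with an average log2 CPM of at least 3. Levels between genes were compared per kilobase of merged exons. Alternatives were DESeq2 1.42.0, 2 other normalizations, 2 other filters, a fit of the 8 tumors compared, the mean log2 CPM of the acinar markers as a covariate, treated tumors with the same label prefix summed, and each tumor left out. No counts of 2 tumors in a group differed by as little as sampling noise.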

Additional observations from a re-analysis of the deposited data

Results flagged for a closer look

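Over 15 genes in 3 groups, 3 of 45 groups had a tumor set apart by Dixon's criterion, and chance flags about 1 in 20 groups. For *Gpt2*, control tumor 2 was the highest of the control tumors, with a gap of 0.851 of the group's range. Control tumor 2 was also the highest for *Mdh1* (0.841 of the range), and R+S tumor 5 was the lowest R+S tumor for *Pycr3* (0.841 of the range).

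The effects of the 2 treatments differed, by edgeR's test of R+S against sunitinib, in 8 of these genes. The log2 differences were -0.54 for *Got2*, -2.22 for *Slc38a3*, -2.26 for *Slc38a5*, -0.76 for *Mdh1*, -1.39 for *Psat1*, -1.35 for *Pycr1*, -0.84 for *Pycr3* and -2.44 for *Gad2*. All 8 were lower in R+S tumors. Of all 16645 tested genes 4.58% were called lower, and of the 1200 genes called in either direction 762 were lower. The 7 genes beside *Got2* were named because they passed the threshold, so that their count restates that choice.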

How the results depend on the processing

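The direction and call of the 24 log2 fold changes (8 genes, 3 comparisons) were compared under 20 alternatives each. Of the 288 values with 1 tumor left out, 266 kept both direction and call, 11 lost the call, 8 gained it and 3 changed sign. Of the 192 others, 174 kept both, 4 lost the call, 8 gained it and 6 changed sign. The values that changed sign, none of them past the threshold, were with the acinar score as a covariate 0.60 for *Glud1* in sunitinib against control, and in R+S against control 0.98 for *Gpt*, 0.80 for *Gpt2*, 0.58 for *Got2*, 0.39 for *Glud1* and -0.62 for *Glul*. Without R+S tumor 5 they were -0.027 for *Glul* in R+S against control (range with 1 tumor left out -0.027 to 0.27) and 0.025 for *Gls2* in R+S against sunitinib (range -0.27 to 0.025), where *Gls2* was 0.00255 without sunitinib tumor 12. The acinar score differed so much between groups that treatment and score cannot be told apart against control: 95.3% (sunitinib) and 93.0% (R+S) of its variance lay between the groups, and 58.0% between R+S and sunitinib.

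Counts of the 8 genes called between R+S and sunitinib tumors were 1 as reported, 4 with DESeq2, 2 with library-size and 2 with upper-quartile normalization, 0 without a filter, 4 with at least 10 counts in every tumor, 0 with only the 8 tumors compared, 0 with the acinar covariate and 0 with tumors of a label prefix summed. Over all genes, 1171 were called there with library-size and 1259 with upper-quartile normalization, and 1043 with prefixes summed. The count over all genes with at least 10 counts in every tumor is not given for this comparison. With 1 tumor left out the counts of the 8 genes ran from 0 to 3, and from 0 to 1 between sunitinib and control. Counts of listed glutamine and glutamate genes, reported as 1 (sunitinib against control), 5 (R+S against control) and 7 (R+S against sunitinib), were 3, 10 and 15 with DESeq2 and 0, 0 and 1 with the acinar covariate. They were 0 in the first with at least 10 counts in every tumor, 11 and 1 in the latter comparisons with only the 8 tumors, and 2 in the first and 4 in the third with prefixes summed. With 1 tumor left out they ran from 1 to 2, 2 to 10 and 0 to 13. Counts over all genes were 745, 693 and 1200, with DESeq2 1477, 1688 and 3045, with the acinar covariate 0, 0 and 96, with only the 8 tumors 380, 2557 and 3, without a filter 501 in the third, and with at least 10 counts 408 in the first. With 1 tumor left out they ran from 440 to 902, 292 to 1627 and 0 to 2861, the counts of the third being 1, 0 and 1 without R+S tumor 4, 5 or 7. *Got2* in R+S against sunitinib had an adjusted p of 0.0767 by edgeR without a filter, 0.107 with only the 8 tumors, 0.0646 with the acinar covariate and 0.0688 with prefixes summed. With the longest transcript as length, 17 of 24 per-kb levels moved by more than 1 SD. No paired analysis was possible because the groups compared share fewer than 2 replicate numbers. The cause of these shifts was not tested. With 4 tumors a group, and sunitinib tumors spread at a median SD of 0.43 on the log2 scale, small differences were not detectable.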

Other observations

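Of the 4 tested hepatocyte markers, 2 were lower in R+S than in sunitinib tumors by edgeR, where 4.58% of all genes were called lower. The list summed to 20.04 to 64.0 CPM in control, 26.4 to 413 in sunitinib and 38.6 to 60.3 in R+S tumors. The 413 CPM were those of sunitinib tumor 6, and the other sunitinib tumors had at most 77.5 CPM. Most of this sum was *Tat* in every tumor but sunitinib tumor 6, where *Tat* was lowest. In the comparisons with control edgeR called 0 of the 4. At an unadjusted p under 0.05 by edgeR, 2 were higher in sunitinib (11.3% of all genes) and 1 was lower in R+S (10.9% of all genes) than in control tumors. DESeq2 called 0 and 1. Of 10 macrophage markers, 2 were lower in sunitinib and 1 in R+S than in control tumors by edgeR, with sums of 633 to 903 CPM in control, 286 to 874 in sunitinib and 418 to 629 in R+S tumors. Of 8 fibroblast and pericyte markers, 2 were lower in sunitinib and 1 in R+S than in control tumors, and 1 was higher in R+S than in sunitinib tumors, with sums of 664 to 1417 CPM in control, 830 to 1112 in sunitinib and 591 to 746 in R+S tumors. Their part in the differences of the glutamine genes was not tested.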
